A study of Mus musculus with 6 samples.

Results

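The control region of mouse mitochondrial DNA is the stretch between the gene of tRNA-Pro (mt-Tp) and the end of the reference sequence, where the gene of tRNA-Phe (mt-Tf) follows on the circular chromosome. It was taken as every position of chromosome M in GRCm38 from the base after mt-Tp, which ends at 15422, to the last one, 877 positions or 5.38% of the chromosome, with both strands kept apart. The region holds no annotated gene. The rule for its members uses position alone and no measured value.

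The data were base counts per position and strand from small RNA libraries of pancreatic islets, the small groups of endocrine cells that make insulin and other hormones. Of the 6 libraries, 3 came from Mrpp3WT mice (wild type) and 3 from Mrpp3N434S mice (mutant). All 6 mice had eaten a high-fat diet for 14 weeks, so diet did not differ between the groups. The library protocol joins adapters to the ends of short RNA, so the reads show short transcripts and fragments. Only mitochondrial counts were analysed here. Neither the islet markers nor the Mrpp3 transcript could be read from them, and the genotype and tissue labels were therefore not checked.

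The control region carries the promoters of both mitochondrial DNA strands and the origin of heavy-strand replication. Transcription from the light-strand promoter runs on the reverse strand of the reference, from high to low positions, past the conserved sequence blocks and towards mt-Tp. RNA that begins at this promoter and ends near the conserved sequence blocks is known as a primer for DNA replication and as the short transcript called 7S RNA. RNase P of mitochondria, whose cutting subunit is MRPP3, cleaves long transcripts at the 5′ ends of tRNAs, and the reverse-strand RNA of the control region lies upstream of such a cut, at mt-Tp. Positions below are given on chromosome M and, where useful, as bases of the dominant RNA defined next, counted from 1 at its 5′ end at 16188 and negative upstream of it.

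The reverse strand showed 3 separate short RNAs under a set cut. Each was an unbroken run of at least 20 nt with depth at or above 1% of the top. Depth was first scaled to each library's highest reverse-strand depth in the region, then averaged over libraries. Depth under that cut was not counted, such as most of that at 15823 to 15922 (mean 22.1). The sequences of the 3 RNAs are given because these RNAs hold most of the region's RNA and most of the results below are about them. They were read from the reference column of the deposited files, are written 5′ to 3′ in the sense of the RNA with T for U, and lie on the reverse strand of GRCm38. In the dominant RNA (chrM:16100-16188, its run down to the 1% cut) the capitals mark the complement of AAACCCC, the core shared by conserved sequence blocks 2 and 3. Some depth went on past 16100 under that cut. At 16100 depth was 1.82% to 2.24% of the top per library, and the fall after it took 0.978% to 1.27%. The second RNA is printed as chrM:15930-16007, from its largest rise, which is only part of its run over the cut, 15922 to 16049. In it the capitals mark a pair of neighbouring bases, 15939 and 15938, that were often misread. Both lie past the main fall of this RNA, which followed 15944. In the third RNA (chrM:15610-15642) the capitals mark the complement of GACATA, letters that also form the core of conserved sequence block 1. Whether this copy belongs to that block was not tested. The last sequence is the DNA-encoded stretch just upstream of the dominant RNA (chrM:16189-16238), all in lower case, from which almost no RNA was read.
The dominant RNA: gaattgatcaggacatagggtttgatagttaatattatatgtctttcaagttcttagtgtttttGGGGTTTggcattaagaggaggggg
The second RNA: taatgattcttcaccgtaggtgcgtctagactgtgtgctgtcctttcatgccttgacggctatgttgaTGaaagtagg
The third RNA: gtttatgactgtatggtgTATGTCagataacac
The upstream stretch: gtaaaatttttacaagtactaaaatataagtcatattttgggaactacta

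Nearly all control-region RNA lay on the reverse strand. Summed over the 877 positions, the reverse strand had 346871, 270904 and 252001 base counts in the 3 wild-type libraries and 268545, 274742 and 320998 in the 3 mutant libraries, each in the order of replicates 1 to 3. The forward strand had 2149, 1511 and 1808 base counts in wild type and 6567, 1623 and 2242 in the mutant. Thus 97.6% to 99.4% of the region's depth was reverse-strand in each library, and mutant replicate 1 stood apart with more forward-strand depth than any other library.

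As a share of all mitochondrial base depth, the reverse strand of the control region was 8.0%, 7.82% and 7.98% in wild type and 2.46%, 5.03% and 5.41% in the mutant (7.93% ± 0.0996 against 4.30% ± 1.61, SD, n = 3 each). The groups did not overlap, and the exact two-sided permutation test gave p = 0.1, the smallest that 3 against 3 libraries can give. In RNA from whole islets, fewer cells of a type and less RNA per cell cannot be told apart. The difference of -3.63 percentage points became -5.48 with positions above a depth of 6000 left out (p = 0.1) and -5.04 with depth outside the rRNA genes as the denominator (p = 0.2, exact permutation tests). The denominator differed between the groups. Summed depth of the forward strand, which holds the rRNA genes, was 2764211 to 3747204 in wild type and 5026986 to 10302401 in the mutant, while that of the reverse strand overlapped (392550 to 589848 against 434381 to 620910). Within reverse-strand depth alone the control region took 58.8%, 65.5% and 64.2% in wild type and 43.3%, 63.3% and 69.2% in the mutant, with overlap.

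The dominant RNA was the most abundant reverse-strand RNA of the chromosome in every library. Its highest depth was 4696, 3683 and 3364 reads over a base in wild type and 3534, 3714 and 4458 in the mutant, with overlap between the groups. Outside the control region the highest reverse-strand depth in any library was 2564, in mutant replicate 1. Positions 16121 to 16188, where depth stayed above 50% of the top, held 51.1%, 57.6% and 55.4% of all reverse-strand depth in wild type and 36.4%, 56.0% and 62.7% in the mutant.

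**Figure D1:**
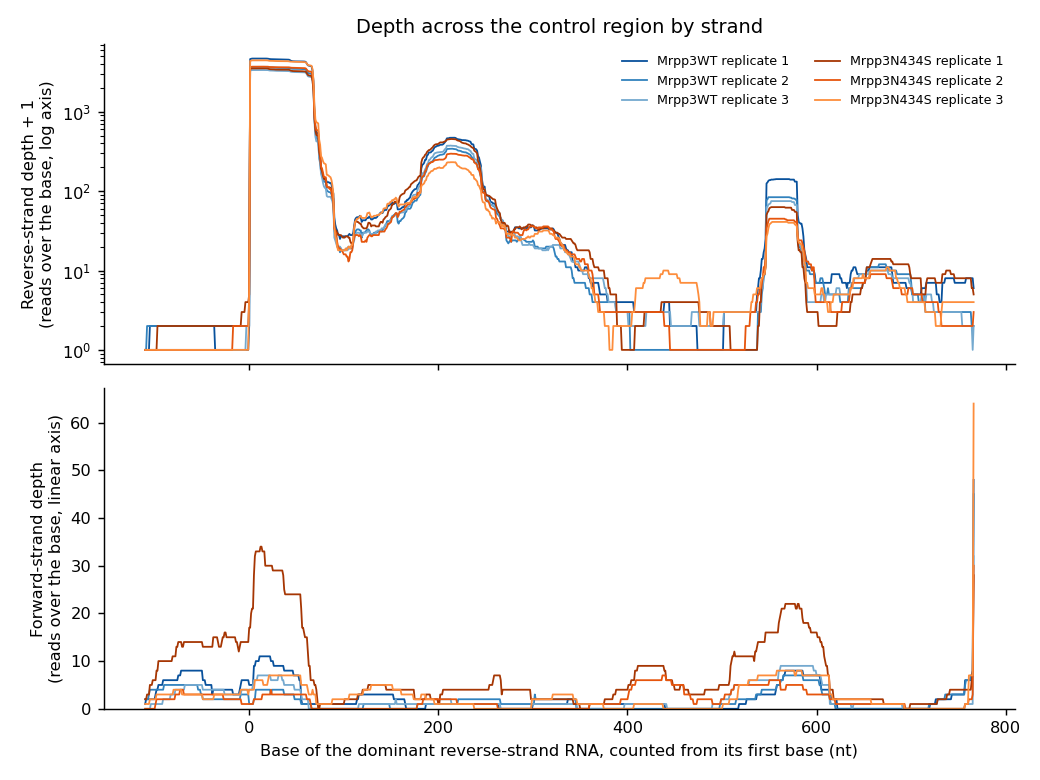
Depth at each position of the control region in the 6 libraries, against the distance in nt from the first base of the dominant reverse-strand RNA, with the reverse strand above (depth + 1, log axis) and the forward strand below (linear axis). The reverse strand rises to between 3364 and 4696 reads at its first peak in every library and has 2 lower peaks further downstream, while the forward strand stays under 50 reads except at the last position, where mutant replicate 3 has 64.

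The 5′ end of the dominant RNA was a single base in all 6 libraries. At position 16188, base 1 of the RNA, depth was 4623, 3626 and 3321 in wild type and 3479, 3652 and 4381 in the mutant. One base upstream, at 16189, it was 1, 1 and 3 in wild type and 4, 4 and 5 in the mutant. The rise at 16188 therefore took 98.2% to 98.6% of the top depth in each library. No library had a depth over 5 anywhere between this base and the end of the reference sequence.

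The 3′ end was spread over several bases, within and beyond the conserved block marked above. The largest fall followed position 16121 (base 68), after which 31.7% ± 1.07 of the top depth was lost in wild type against 29.5% ± 1.56 in the mutant (SD, n = 3 each). Further falls followed base 67 (17.5% ± 0.558 against 20.1% ± 1.89), base 66 (9.29% ± 0.618 against 9.33% ± 1.19) and base 69 (7.95% ± 0.828 against 7.12% ± 1.12). Bases 66 to 69 all lie inside the GGGGTTT of the RNA, which occupies 16118 to 16124. A shorter group of ends lay at 16128 and 16129, and a longer one at 16116, 16114 and 16100.

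The mutant libraries kept a larger share of the dominant RNA's depth past its main 3′ end. At 16116 (base 73) depth was 11.1%, 12.2% and 12.4% of the top in wild type and 14.0%, 15.4% and 16.0% in the mutant. At 16110 (base 79) it was 3.05%, 3.58% and 3.39% in wild type and 4.05%, 4.04% and 5.03% in the mutant. At both positions every mutant library lay above every wild-type library, while at 16121 itself the groups overlapped (53.9% ± 2.12 against 54.2% ± 2.45, SD, n = 3 each).

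The groups did not overlap at 19 of the 21 positions from 16100 to 16120, always with the mutant higher. Over these and the 51 positions before them the share was 26.4%, since the groups overlapped at each of those 51. These positions were picked after their values were seen, and neighbouring positions share the same reads, so they are not separate observations. Of 4 positions tested, 16104, 16110 and 16116 each gave p = 0.1 and 16121 gave p = 0.8 in exact two-sided permutation tests. Adjusted over the 4, the lower value became 0.133, so none passed 0.05. The read length is not given in the sources used here, and an end of the reads cannot be told apart from an end of the RNA where the RNA is longer than a read.

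**Figure D2:**
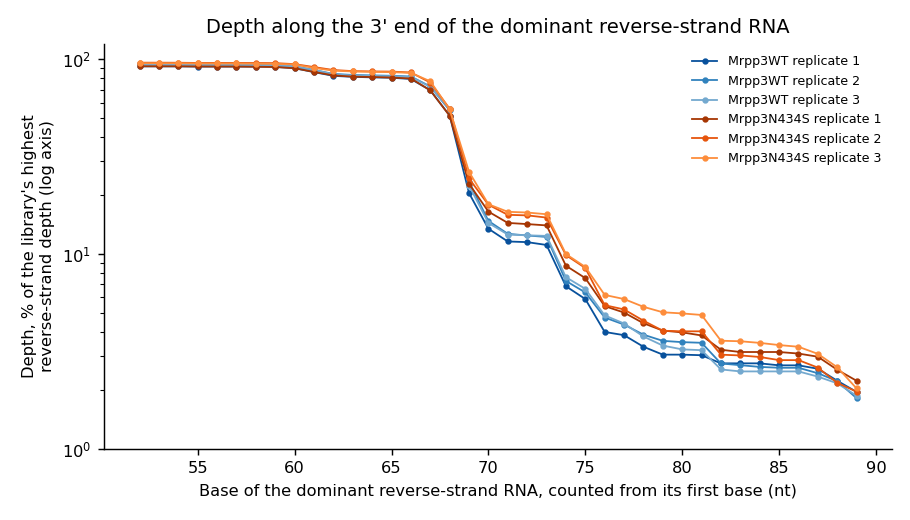
Depth along the 3′ end of the dominant reverse-strand RNA in each library, in percent of that library's highest reverse-strand depth (log axis), against the base of the RNA in nt. The 6 lines run together up to base 68 and then separate, with the 3 mutant libraries at 14.0% to 16.0% and the 3 wild-type libraries at 11.1% to 12.4% at base 73.

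The second RNA lay downstream, between the dominant RNA and the middle of the region. Its highest depth was 472, 342 and 375 in wild type and 454, 296 and 231 in the mutant, with overlap, which was 10.1%, 9.29% and 11.2% of the dominant RNA in wild type and 12.9%, 7.97% and 5.18% in the mutant. That ratio did not pass an exact permutation test (p = 0.6). Averaged over libraries, depth stayed above 50% of its peak from 16004 down to 15946, a length of 59 nt.

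Unlike the dominant RNA, the second RNA had several 5′ ends. Depth rose most at 16007, 16001 and 15980, and the main fall at its 3′ side followed 15944. At 16007 depth was 40.7%, 38.0% and 39.5% of the RNA's peak in wild type and 50.4%, 47.6% and 49.4% in the mutant. At 16001 it was 58.2% ± 1.15 in wild type against 68.1% ± 1.71 in the mutant (SD, n = 3 each). The mutant libraries thus held relatively more of the forms that began further upstream, without overlap between the groups at either position. These values were noticed in the data and carry no test.

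The third RNA was the one of the 3 whose highest depth was lower in every mutant library before any scaling. Its first base was 15642 in all 6 libraries, taken where depth passed 50% of the peak. Its last base at that height was 15610 in the 3 wild-type libraries and mutant replicate 1, a length of 33 nt. In mutant replicates 2 and 3 it was 15605, a length of 38 nt. That height depends on the peak, which was lower in these 2 libraries, while their depth at 15609 (26 and 24 reads) lay within the wild-type range of 23 to 49. The greater length is therefore not shown to be a different 3′ end. Its highest depth was 141, 83 and 74 reads in wild type and 62, 44 and 40 in the mutant. Each mutant library was below each wild-type library, although the mutant libraries were deeper in total.

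Depth just outside the third RNA did not show that order. One base upstream, at 15643, it was 24, 12 and 11 in wild type and 10, 13 and 10 in the mutant. One base downstream, at 15609, it was 49, 23 and 26 in wild type and 22, 26 and 24 in the mutant. Both flanks overlapped between the groups, whereas at the first and the last base of the RNA they did not (62 to 124 against 26 to 49 reads at 15642, and 66 to 131 against 35 to 53 at 15610). Its first base alone added 100, 64 and 51 reads in wild type and 39, 20 and 16 in the mutant.

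After TMM scaling (edgeR's factors for library size, over all windows of the chromosome) the peak of the third RNA was 183, 144 and 140 reads in wild type and 29.4, 47.7 and 36.7 in the mutant (155.6 ± 23.8 against 37.9 ± 9.26, SD, n = 3 each), 4.10-fold higher in wild type. The dominant RNA and the second RNA were 1.92-fold and 2.56-fold higher in wild type on that scale, which sets each RNA against the other mitochondrial RNA of its library. Ratios between these RNAs need no scaling factor. The third RNA was 3.0%, 2.25% and 2.20% of the dominant RNA in wild type and 1.75%, 1.19% and 0.897% in the mutant. Against the second RNA it was 29.9%, 24.3% and 19.7% in wild type and 13.7%, 14.9% and 17.3% in the mutant. Both ratios were lower in all 3 mutant libraries than in all 3 wild-type libraries. Each gave p = 0.1 by the exact two-sided permutation test, and 0.15 adjusted over the 3 ratios compared. Neither ratio was planned, and both reuse the third RNA's peaks, which already separated the groups before scaling.

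**Figure D3:**
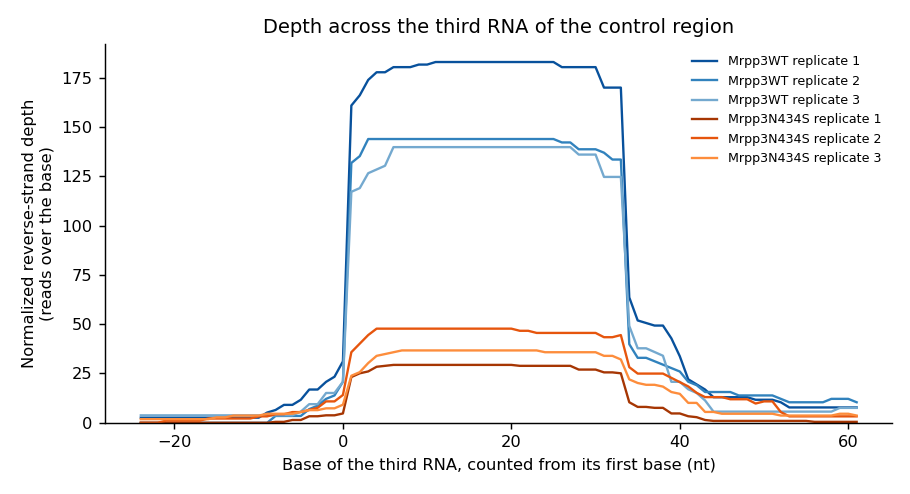
Normalized reverse-strand depth (TMM scaling, reads over the base) across the third RNA in each library, against the base of the RNA in nt. The wild-type libraries reach 140 to 183 reads on the plateau and the mutant libraries 29.4 to 47.7, with the 5′ edge at the same base in all 6 libraries. At the 3′ edge mutant replicates 2 and 3 lose a smaller share of their peak.

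Genotypes were compared across the region in windows of 100 nt on each strand, with edgeR's quasi-likelihood test fitted over all 153 windows of both strands of the chromosome with a mean depth of at least 10. Among the control region's 18 windows 6 passed that minimum, all on the reverse strand. All 6 had a negative log2 change and 4 were called lower (adjusted p under 0.05), 0 higher, where 18.3% of all 153 windows were called lower and 5.88% higher. On the reverse strand outside the control region 11 of 17 windows, 64.7%, were called lower, so the region's share lies near that of its own strand (65.2% with the control region's windows included). The median log2 change was -1.11 over the 6 control-region windows, -0.79 over those 17, and -0.01 over all 153.

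The 2 windows that share the third RNA had the largest changes of the 6. The window of bases 467 to 566 had normalized depths of 38.9, 29.5 and 30.2 in wild type and 6.16, 9.77 and 9.18 in the mutant, a log2 change of -2.07 (SE 0.26, adjusted p = 0.000216, edgeR). The window of bases 567 to 666 had 35.0, 29.5 and 28.3 in wild type and 5.68, 11.9 and 10.1 in the mutant, a log2 change of -1.88 (SE 0.28, adjusted p = 0.000578, edgeR). Neither pair of groups overlapped. Scaled to the tRNA genes the changes were -1.11 and -0.93, and scaled to reverse-strand depth outside the control region they were -1.24 and -1.05. Both windows stayed past the threshold under those scalings, which moved the median of all windows to 0.92 and 0.79.

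The window of bases 167 to 266, which holds the second RNA, fell by 1.29 on the log2 scale (SE 0.22, adjusted p = 0.00165, edgeR). Its normalized depth was 353, 342 and 416 in wild type and 130, 199 and 127 in the mutant. Scaled to tRNA genes its change was -0.42 (adjusted p = 0.21) and scaled to the rest of the reverse strand -0.50 (adjusted p = 0.0697), so the call was lost under both. The windows of bases 267 to 366 and 67 to 166 missed the threshold, with log2 changes of -0.78 in each (adjusted p = 0.0504 and 0.0703, edgeR).

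The window of bases -33 to 66, which holds most of the dominant RNA, was the fourth called (log2 change -0.93, SE 0.27, adjusted p = 0.0230, edgeR). For the dominant RNA itself, positions 16116 to 16188 were tested as 1 feature in the same fit. Normalized mean depth was 5413, 5724 and 5696 in wild type and 1484, 3665 and 3709 in the mutant, a log2 change of -0.93 (SE 0.28, adjusted p = 0.0292, edgeR). Mutant replicate 1 lay far below the other 2 mutant libraries, and without it the change was -0.60 (adjusted p = 0.000173, edgeR). The call was lost, at similar changes, on leaving out any 1 wild-type library (-0.94 to -0.79, adjusted p = 0.104 to 0.179) and under DESeq2 (-0.87, adjusted p = 0.0599). It was also lost on the scale of the tRNA genes, where the change was -0.11 (adjusted p = 0.748). On the scale of the other reverse-strand RNA it was -0.08 (adjusted p = 0.885).

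**Figure D4:**
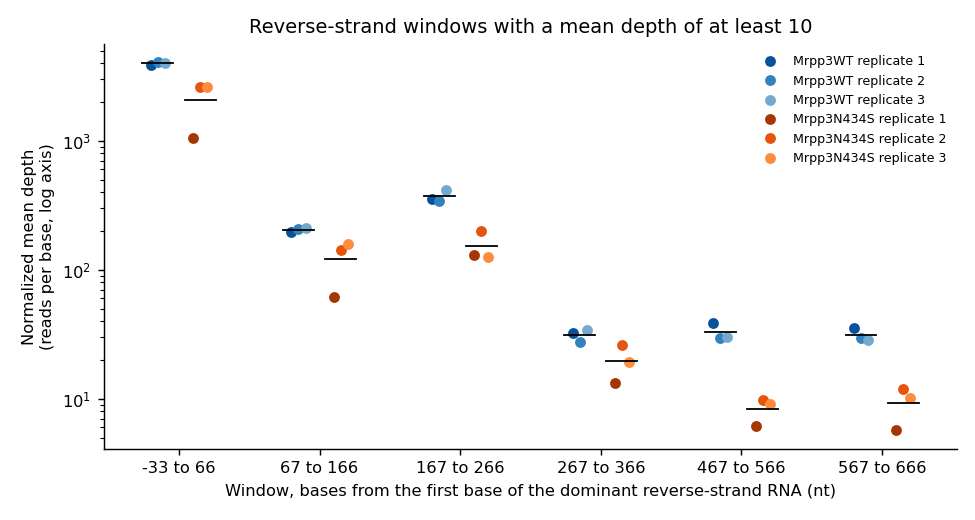
Normalized mean depth (reads per base, log axis) of the 6 tested reverse-strand windows in each library, placed by distance in nt from the first base of the dominant RNA, with black bars at the group means. The wild-type libraries lie above the mutant libraries in all 6 windows, and the separation is widest in the last 2, which share the third RNA.

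**Figure D5:**
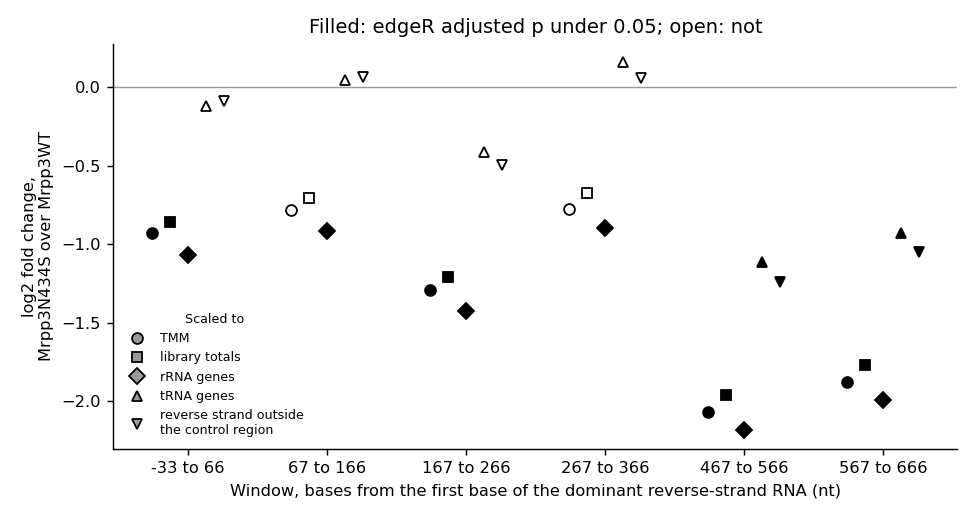
The log2 fold change (mutant over wild type) of the 6 windows under 5 scalings, filled where the edgeR adjusted p was under 0.05. The 2 windows of the third RNA stay between -0.93 and -2.19 and filled under each scaling, while the other 4 lie between -0.50 and 0.16 and open when scaled to tRNA genes or to the rest of the reverse strand.

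Towards mt-Tp the reverse strand was thin. The 10 positions just 5′ of mt-Tp, the leader that RNase P removes from this tRNA, had a mean depth of 6.7, 1.7 and 0.9 in wild type and 6.3, 1.1 and 3.0 in the mutant. The highest depth within mt-Tp was 75, 70 and 37 in wild type and 325, 79 and 83 in the mutant. Unscaled depth within mt-Tp was thus higher in every mutant library than in every wild-type library, and the mutant libraries were also deeper in total. Leader depth overlapped between the groups, and its mean stayed under the minimum of 10 set for a test. Reverse-strand depth over the distal part of the region, bases 167 to 766, was 3.8% ± 0.337 of that over bases -33 to 166 in wild type against 3.33% ± 1.37 in the mutant (SD, n = 3 each). The log2 ratio of the 2 parts differed by -0.27 (exact permutation p = 0.6), and this difference became 0.02 without mutant replicate 3.

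The forward strand held little RNA and 1 clear end. RNA opposite mt-Tp ran 1 base into the control region. Its depth was 48, 45 and 32 in wild type and 28, 30 and 64 in the mutant at that base, and 7, 8 and 1 against 8, 3 and 7 at the next, 15424. At the other border, upstream of mt-Tf, forward depth was 0 to 2 reads at the last position and 2 to 7 reads at the first base of mt-Tf. No forward-strand window reached the minimum depth, so no genotype test was made there. The strand balance of the region's windows could not be tested at that minimum either, and with a minimum of 5 on both strands 1 window was tested and 0 were called.

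As a share of all depth, the forward strand of the region was 0.0496%, 0.0436% and 0.0573% in wild type and 0.0601%, 0.0297% and 0.0378% in the mutant, with overlap (exact permutation p = 0.5). Forward depth opposite the dominant RNA was highest in mutant replicate 1, a mean of 24.4 reads against 2.54 to 7.18 in the other 5 libraries. Depth on the forward strand was not detectable at 18 to 335 of the 877 positions, depending on the library, which at these depths does not show that no RNA is made there.

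Misread bases were measured because base modifications and RNA ends can both change the base that is read. On the reverse strand 181 positions were read at least 50 times in each library, and on the forward strand 0 were. Of the 181, 11 had a mean mismatch of at least 1% and 5 of at least 5%. Substitutions are written with the reference base of the RNA first, then the chromosome M position, then the base most often read.

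The dominant RNA was read cleanly over its 68 nt core, where 0 of 68 positions reached 1% and the mean mismatch was 0.256% ± 0.00497 in wild type against 0.246% ± 0.0123 in the mutant (SD, n = 3 each). Its extension was not: 7 of the 21 positions from 16100 to 16120 reached 1%. A16105C was misread in 11.2% ± 1.68 of wild-type and 11.5% ± 4.58 of mutant reads, A16108C in 9.92% ± 1.82 and 7.56% ± 3.09, and A16110C in 7.42% ± 3.84 and 6.82% ± 2.00 (SD, n = 3 each). These 3 sites are A bases with a G on their 3′ side, in the last 11 bases of the printed sequence, and their depth was 84 to 224 reads.

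In the second RNA, G15938A had a mismatch of 9.12% ± 2.56 in wild type against 6.75% ± 2.95 in the mutant, and T15939A of 6.70% ± 2.77 and 4.62% ± 1.80 (SD, n = 3 each). Both sites lie on the 3′ side of this RNA's main fall, which followed 15944. At depths of 57 to 91 reads the exact (Clopper-Pearson) 95% binomial interval of a single library was wide, for example 0.701% to 9.54% for G15938A in the first mutant library. The interval takes in counting error alone, because reads copied from 1 molecule by PCR are not independent. None of the 11 control-region sites tested was called different between genotypes (0 called, adjusted p = 0.847 to 0.996, edgeR), and 0% of all 87 sites tested on the chromosome were called. Standard errors of the log2 odds were 0.51 to 0.68 at the sites named above, so differences of that size, and clearly larger ones after adjustment over 87 sites, could be missed. In edgeR, limma and DESeq2 alike 0 of the 11 had an unadjusted p under 0.05.

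Short motifs were searched on both strands of the region. GACATA is the core of conserved sequence block 1, AAACCCC the core that blocks 2 and 3 share, and TACAT the core of termination-associated sequences, near which the DNA strand made in this region often stops. GACATA had 5 matches in the region of 9 on the chromosome, and 9.33% of all 300-base stretches of the chromosome held it. Of the 5, the match at 15619 to 15624 lies inside the third RNA and those at 16146 to 16151 and 16172 to 16177 inside the dominant RNA. The matches at 15601 to 15606 and 16053 to 16058 lie outside the printed RNAs. Which match belongs to block 1 was not tested. AAACCCC had 2 matches of 7 on the chromosome (10.5% of stretches). The match at 16118 to 16124 lies where the dominant RNA ended most often. The match at 16090 to 16096 lies just past its printed sequence, where averaged depth was under the 1% cut though not absent. TACAT had 6 matches of 40, all between 15425 and 15506 (47.9% of stretches), in a window whose mean reverse-strand depth was 3.35 to 8.42 per library. These are matches of letters and not measured sites.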

How the data were processed

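Small RNA of islets from 3 Mrpp3WT and 3 Mrpp3N434S mice was made into Illumina libraries, per the labels' protocols. The submitters' processing notes name Trim Galore, cutadapt, FastQC, STAR and GRCm38.p6. The deposited values are raw counts of each base per position and strand, per the file headers, so depth is the sum of the 5 base columns. The highest depth of both strands together was 7436 to 7756 in wild type and 7997 to 8000 in the mutant, so a depth limit may act outside the control region. A depth of at least 6000 was reached at 408 positions in mutant replicate 1 and at 90 to 98 in each other library. Such a limit would enter the totals behind the shares and scalings. Its effect was tested only by leaving out positions above 6000. A further table with 16 value columns matched to no sample was not used.

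Mean depth per window, rounded, was tested with edgeR 4.0.16 (TMM, quasi-likelihood, Benjamini-Hochberg over 153 windows). Mismatches were tested as ratios with a library effect. Alternatives used DESeq2 1.42.0 and limma 3.58.1 (0.5 added to counts), other scalings, filters, windows and left-out libraries. The models were also run on data simulated from values of these same libraries, with each window and site drawn independently. Real neighbouring windows can share reads, so that run does not test the models' assumptions. All windows, the 5 largest rises and falls, and up to 8 mismatch sites were eligible for naming. The members, lists and rules were chosen with earlier results of these data known. No 2 libraries agreed within counting noise (chi-square per degree of freedom 2.33 or more).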

Additional observations from a re-analysis of the deposited data

How the results depend on the processing

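With 3 libraries a group, exact tests cannot go below p = 0.1. The 4 control-region windows called lower became 2 when scaled to tRNA genes or to reverse-strand depth outside the region, 2 (of 3 tested) with a mean depth of at least 50, 9 (of 10) with windows of 50, and 2 (of 3) with windows of 200. On leaving out 1 library at a time the count was 3 to 6. Scaling to tRNA genes turned 9 higher and 28 lower calls over all windows into 101 and 5, and scaling to the other reverse-strand depth into 94 and 5. The windows of bases 467 to 566 and 567 to 666 kept direction and call in all 15 alternatives each.

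The dominant RNA's change of -0.93 lost its call at -0.11 (tRNA scale), -0.083 (reverse-strand scale), -0.87 (DESeq2) and -0.87 (highest depth). It ranged from -1.21 to -0.60 on leaving out 1 library. The window of bases 267 to 366 changed by 0.16 (tRNA scale) and 0.06 (reverse-strand scale), and that of bases 67 to 166 by 0.048 and 0.067, both reversed. The distal to proximal difference of -0.27 ranged from -0.58 to 0.022 on leaving out 1 library. The forward-strand share difference of -0.00759 percentage points became 0.0455 outside rRNA genes. The log2 odds of a mismatch at 16105 was -0.03 and ranged from -0.35 to 0.36 on leaving out 1 library, above 0 without wild-type replicate 1 or mutant replicate 3. At 16110 it was -0.19 and ranged from -0.55 to 0.24, above 0 without wild-type replicate 1. For these reversals and lost calls the cause was not tested.

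Same-numbered libraries did not deviate together in depth (correlations 0.056, -0.042 and 0.060). Depth thus gave no sign of pairing by number, which does not show how the samples were prepared. With the replicate number as a block 5 windows were called, the dominant RNA changed by -1.04, and the mismatch at 16105 by 0.020.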
